A study of Mus musculus with 60 samples.

Results

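Myosin heavy chains are the motor proteins that pull on actin filaments, and 9 of their genes were described here: Myh1, Myh2, Myh3, Myh4, Myh6, Myh7, Myh8, Myh9 and Myh10. They were chosen by symbol, and all 9 were found, each with 1 row of 46517 in the fibroblast table and 1 row of 54838 in the tissue table. The mice carried a CD74-NRG1 fusion gene in the Rosa26 locus behind a stop cassette flanked by FRT sites, together with an FLP deleter allele that removes the cassette early in the embryo. The tissue libraries, from 9 mice, were 7 sarcomas, 3 liver tumours and 2 intestine tumour libraries of 1 mouse, beside normal muscle (6), lung (7), liver (8), spleen (6), brain (2) and kidney (1). The sarcomas came from 6 mice, since mouse M00245 gave 2. The mouse embryonic fibroblasts (MEFs) came from 9 embryos: 3 homozygous for the fusion (Rosa26FSF.CD74-NRG1/FSF.CD74-NRG1), 3 heterozygous (Rosa26FSF.CD74-NRG1/Flp) and 3 negative (Rosa26Flp/Flp), each sampled at passage 3 and at passage 1.

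Per the labels, all tissue donors belong to the line Rosa26CD74-NRG1/Flp, so the normal tissues carry the fusion as well and no tissue without it was compared. The labels give neither the age of the mice nor which muscle was taken. Tissue was cut as frozen sections, so neighbouring tissue can be part of a section. Nrg1, read as a check of the fibroblast labels, went against them in 2 embryos. Homozygous embryo 3 had 1.28 CPM at passage 3 and 0.644 CPM at passage 1, and negative embryo 1 had 147 and 132 CPM. The library of embryo 8 used as passage 3 is named passage 1 in its title and p5 in its column, while its group label says passage 3, and the other embryo 8 library is named passage 2 in its title.

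Skeletal muscle fibres are classed by the heavy chain they hold: Myh7 marks slow type I fibres, Myh2 fast oxidative type IIA, Myh1 fast type IIX and Myh4 the fastest, most glycolytic type IIB. Myh3 (embryonic) and Myh8 (perinatal) are made in developing and regenerating muscle, Myh6 is the main chain of the adult mouse heart, and Myh7 is also a heart chain. Myh9 and Myh10 encode non-muscle myosins IIA and IIB, which drive contraction of stress fibres, cell migration and cell division in most cell types.

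The skeletal chains lie side by side in the genome. In the RefSeq annotation of build GRCm38.p6, Myh3, Myh2, Myh1, Myh4 and Myh8 follow one another as protein-coding genes on chromosome 11. Myh6 and Myh7 are neighbours on chromosome 14, Myh10 is elsewhere on chromosome 11 and Myh9 is on chromosome 15. The sources used here do not name the build behind the count tables, and these positions come from RefSeq alone. Each of the 9 genes had a promoter window of 300 bases in the RefSeq table, of which 250 lie before the start site. A run of 14 bases was the longest that the windows of Myh1, Myh2, Myh4 and Myh8 share, and it was found by searching these 4 windows for it. On either strand it occurred in 4 of 32851 windows (0.0122%), those of these 4 genes. The 30 bases around it are shown because Myh4, Myh1 and Myh2 are the chains on which the fibre-type results turn. The run is in capitals, and all 4 sequences are on the plus strand, 5′ to 3′.
Myh4: agaaatatTTCTAATTATATCCattcacag
Myh1: gggaatatTTCTAATTATATCCaaacatcc
Myh2: aaaaatatTTCTAATTATATCCaaccattc
Myh8: atgaatacTTCTAATTATATCCgaagatgc
These stretches are chr11:67237646-67237675 for Myh4, chr11:67199934-67199963 for Myh1, chr11:67170894-67170923 for Myh2 and chr11:67277062-67277091 for Myh8. The run began 158 bases before the start site in Myh4, 160 in Myh1 and 125 in Myh2, but 54 in Myh8. The motif TATAAA, searched on both strands, was in the windows of Myh1, Myh2, Myh3, Myh4, Myh6, Myh8 and Myh9 and in neither of those of Myh7 and Myh10, against 13.6% of all windows. A match of letters is a description and says nothing of binding.

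The assay (QuantSeq) reads 1 stretch near the 3′ end of each transcript, so a count does not grow with gene length and the chains can be set beside each other as CPM, which are counts relative to the total of the library. Total counts per library were 4837440 to 10089572 in tissues and 3107529 to 5511781 in MEFs. A count of 0 allows up to 3 counts, or 0.297 to 0.62 CPM in a tissue library and 0.544 to 0.965 CPM in an MEF library. Mitochondrial transcripts took 5.56 to 13.4% of counts in sarcomas and 21.09 to 34.8% in muscle. The deposited values are expected counts, which can divide reads between near-identical genes such as these, so small values of 1 chain beside a very abundant one are uncertain. Whether counting used the strand is not given, so reads of the antisense gene Myhas within the cluster cannot be told apart from those of the chains it overlaps. In these bulk samples, fewer cells of a type and less RNA per cell cannot be told apart.

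The muscle libraries were those of a fast, almost wholly type IIB and IIX muscle. Myh4 (ENSMUSG00000057003) had 5364, 5436, 8579, 10111, 9771 and 8125 CPM in the muscles of mice M00237, M00238, M00245, M00246, M00248 and M00249. Myh1 (ENSMUSG00000056328) had 751, 337, 1052, 1078, 751 and 578 CPM in the same order of mice. Myh4 was thus the higher of the pair in all 6 muscles. Myh2 (ENSMUSG00000033196) had between 0.598 and 23.8 CPM with a median of 4.42, and Myh7 (ENSMUSG00000053093) was at 0 in 4 muscles and reached 0.111 CPM in the others, below the limit that a count of 0 allows.

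As shares of the summed counts of the 4 adult chains, Myh4 took 91.2 ± 2.64% (SD, n = 6 muscles), with a range of 87.6 to 94.2%. Myh1 took 5.83 to 12.3% with a median of 8.38%. Myh2 took 0.0104 to 0.246% and Myh7 at most 0.00173%. These shares rest on 55542 to 88072 counts of the 4 chains per muscle, so counting error is small beside the spread between mice. The order Myh4, Myh1, Myh2, Myh7 held in each of the 6 muscles. Summing over all 7 striated chains instead left the median share of Myh4 at 91.5%, against 91.6% over the adult chains.

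Several thin filament and calcium genes of fast fibres were abundant in the same libraries, though not all genes of that list. The list of 11 partners of the fast chains was led in muscle by Tnnt3, the fast troponin T, with a median of 4643 CPM, Atp2a1, the fast-fibre calcium pump, with 3458 CPM, Tnnc2, the fast troponin C, with 2938 CPM and Tnni2, the fast troponin I, with 2238 CPM. Its lowest members were Mybpc2, the fast myosin-binding protein C, with 16.9 CPM, and Actn3, an actinin of fast fibres, with 4.21 CPM. The slow-fibre list was led by Tpm3, a tropomyosin that other cells make as well, with 87.2 CPM, and Atp2a2, the calcium pump of slow fibres and heart, with 82.2 CPM. Summed per muscle, the slow-fibre list gave 257 to 347 CPM and the fast-fibre list 10930 to 20655 CPM. The developmental chains were low: Myh8 (ENSMUSG00000055775) had 1.4 to 5.26 CPM with a median of 3.24 and Myh3 (ENSMUSG00000020908) 0 to 2.51 CPM with a median of 0.315. Myh6 (ENSMUSG00000040752) had at most 0.389 CPM in muscle. Other heavy chains that are no members were present beside them, with medians of 50.6 CPM for the non-muscle chain Myh14 and 34.5 CPM for the smooth muscle chain Myh11.

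**Figure D1:**
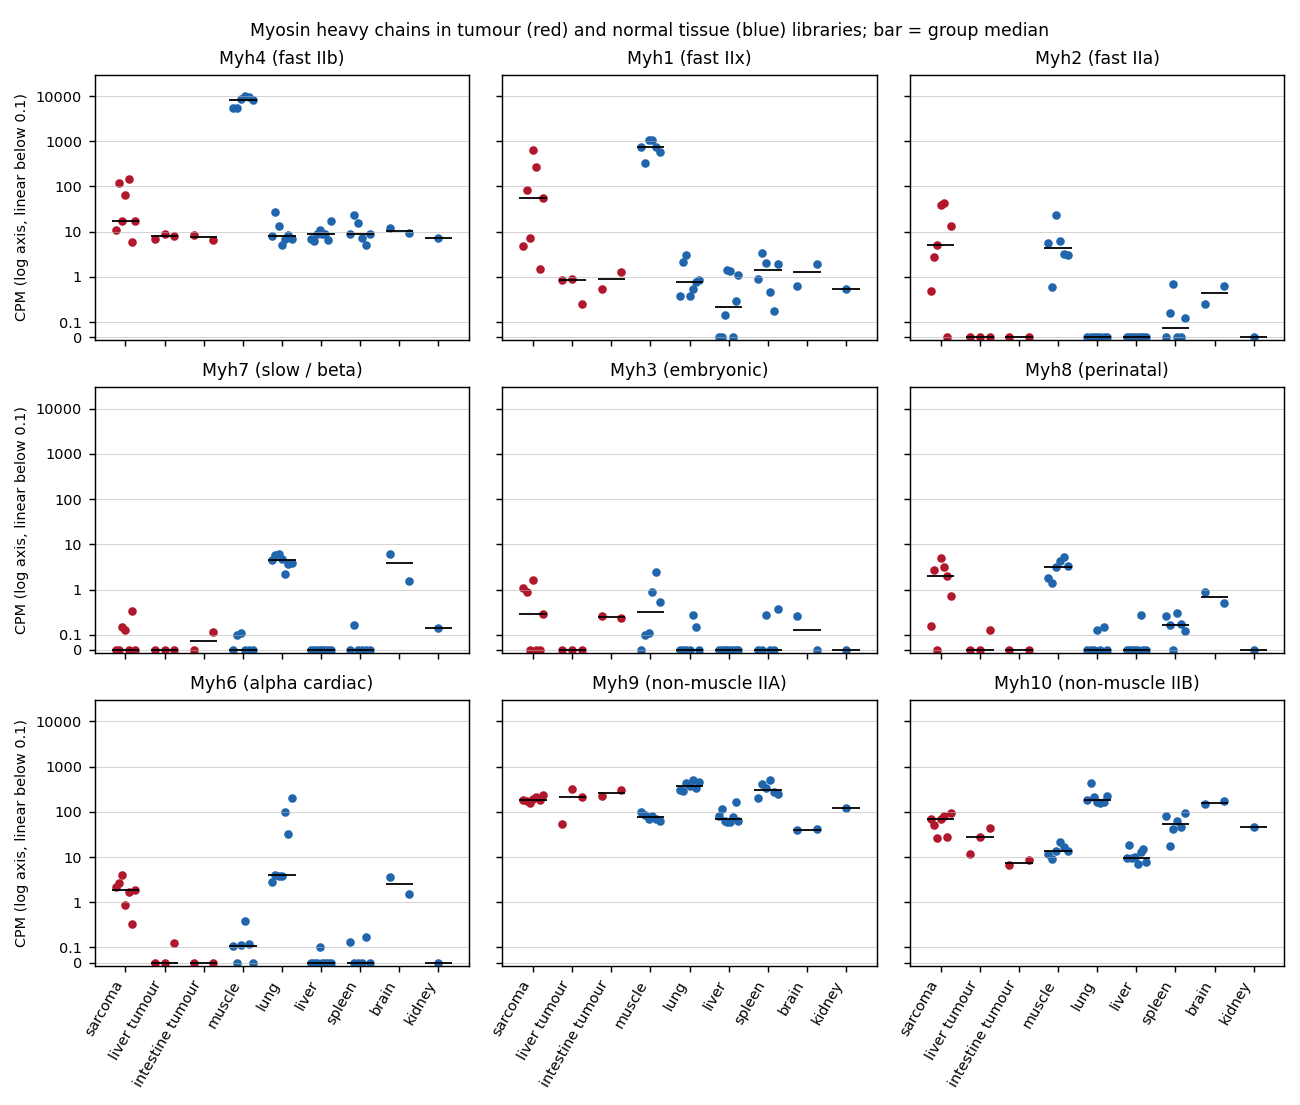
Level of each of the 9 heavy chains in CPM (log axis, linear below 0.1) in every tissue library, tumours in red and normal tissues in blue, with bars at group medians. Myh4 lies at 5364 CPM or above in all 6 muscles and between 4.98 and 146 CPM in every other tissue library, and Myh9 and Myh10 are present everywhere.

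The adult chains Myh4 and Myh1 were lower in sarcomas than in muscle but above 0 in all 7 sarcomas, and the libraries differed widely. Myh4 had 11.1, 122, 16.9, 64.0, 146, 5.96 and 17.4 CPM in the sarcomas of M00235, M00236, M00237, M00238, M00245 (first and second) and M00248. Myh1 had 4.78, 83.2, 7.38, 630, 267, 1.49 and 54.4 CPM in these libraries. No sarcoma reached the lowest muscle in Myh4, whereas the Myh1 ranges overlapped through the sarcoma of M00238. Myh2 had 0.478, 2.78, 4.97, 39.0, 43.6, 0 and 13.6 CPM in the sarcomas, against 0.598 to 23.8 CPM in muscle, and here sarcomas M00238 and M00245 first lay above every muscle. The summed adult chains amounted to 0.0847 to 7.99% of the muscle median, the lowest being the second sarcoma of M00245 and the highest that of M00238. All these values are unscaled CPM. Scaling factors were 1.06 to 1.56 for sarcoma and 0.65 to 0.803 for muscle. Scaling thus lowers sarcoma values against muscle, and the Myh1 overlap and the high Myh2 values need not hold after it.

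In the edgeR fit of 6 mice with sarcoma against 6 muscles, 9523 of 14697 genes tested were past an adjusted p of 0.05 (64.8%), of which 4922 were higher in sarcoma (33.5%) and 4601 lower (31.3%). Of the 9 chains 6 passed the filter on low counts; 2 were called higher, 2 lower, and the other 2 were not called, which is near the share of all genes. Their median log2 fold change was -0.92, against 0.06 over all genes. Myh4 fell by 8.16 in log2 units (SE 0.79, adjusted p = 1.6e-06), with scaled means of 39.4 ± 41.2 CPM in sarcoma and 11300 ± 3590 CPM in muscle (SD, n = 6 each). Myh1 fell by 3.32 (SE 0.99, adjusted p = 0.01), with 108 ± 168 CPM in sarcoma and 1080 ± 434 CPM in muscle. It had -4.74 without the sarcoma of M00238, -4.47 with the mouse as a block and -2.33 with library totals alone, and was called in each. Myh2 had a log2 fold change of -0.14 (SE 0.89, adjusted p = 0.9), with 9.24 ± 10 CPM in sarcoma and 10.4 ± 13.1 CPM in muscle. Its sign turned under several alternatives, with 0.94 (adjusted p = 0.36) when libraries were scaled by their totals alone. Myh8 had -1.7 (SE 0.73, adjusted p = 0.055), with 1.4 ± 1.46 CPM in sarcoma and 4.61 ± 2.35 CPM in muscle. The p-values measure the spread between these mice.

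Partners of the striated chains were low in sarcoma as well. Of 11 fast-fibre genes tested 9 fell and 2 were not called, with a median log2 fold change of -4.95. Among them were Myl1, a fast myosin light chain (-5.49, SE 0.91, adjusted p = 0.0002), Atp2a1 (-5.92), Tnnt3 (-5.33) and Myoz1 (-5.32), a Z-disc protein of fast fibres. All 12 genes of the adult muscle list fell, with a median of -5.01, such as Pygm, muscle glycogen phosphorylase (-5.1), and Mb, myoglobin (-6.57). Of 10 slow-fibre genes 5 were tested, 4 fell and 1 rose, with a median of -2.73. Of 14 genes of developing muscle 8 were tested and 7 fell, led by Actc1, the cardiac and fetal actin (-8.42, SE 0.57, adjusted p = 7.4e-08). That list summed to 7.48 to 24.5 CPM in sarcoma and 226 to 524 CPM in muscle. Genes so low in sarcoma can pass the filter through muscle alone, where they are high. The counts of genes that fell on these muscle lists therefore support nothing, and the folds only describe low levels in sarcoma.

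Libraries with more chain transcript also had more of the partner genes. The percents of muscle level that follow are from unscaled CPM, which favour sarcoma. Per library, in the order of sarcomas given above, fast-fibre genes had a median of 0.206, 3.88, 0.545, 28.4, 7.27, 0.134 and 1.93% of their muscle level. The adult muscle list had 0.517, 4.54, 0.645, 21.8, 9.84, 0.116 and 2.37%. Single fast-fibre genes ranged widely around this median, from 10.2 to 609% in the sarcoma of M00238, where Actn3 had 25.7 CPM against a muscle median of 4.21 CPM. The sarcoma of M00238 was the highest on both lists and the second sarcoma of M00245 the lowest. In M00238 Myh1 stood at 83.9% and Myh2 at 881% of the muscle median, but Myh4 at 0.766%. In the first sarcoma of M00245 Myh1 stood at 35.6%, Myh2 at 986% and Myh4 at 1.75%. Markers of Schwann cells, fixed as a list of another cell type, summed to 3831 to 6819 CPM in sarcoma and 156 to 291 CPM in muscle, and 9 of 11 rose. Markers of fibroblasts summed to 8413 to 33242 CPM in sarcoma and 1407 to 1793 CPM in muscle, and 8 of 12 rose. Markers of macrophages summed to 534 to 1729 CPM in sarcoma and 147 to 363 CPM in muscle, and 11 of 12 rose. Of 9 endothelial markers tested 7 fell. The part of these cells in the levels of the striated and non-muscle chains was not tested.

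The adult chains counted in sarcoma were not in the proportions of the muscle libraries. Myh4 made up 68.0, 58.7, 57.4, 8.72, 32.0, 76.6 and 20.3% of the adult chains in the 7 sarcomas, in the same order, against 87.6 to 94.2% in muscle, so the groups did not overlap. Myh1 made up 19.1 to 85.9% in sarcoma with a median of 40.0%, against 5.83 to 12.3% in muscle. Myh2 took between 0 and 16.9% in sarcoma. In the sarcomas of M00235, M00237 and M00248 and the second of M00245, Myh4 was at 5.96 to 17.4 CPM. Normal libraries other than muscle had 4.98 to 27.4 CPM, so the shares of these sarcomas rest on Myh4 at that trace level. The depth behind the shares is uneven. In the sarcoma of M00238 the 4 chains had 5834 counts and the Myh4 share a 95% Wilson interval of 8.03 to 9.48%, whereas the second sarcoma of M00245 had 47 counts and an interval of 62.8 to 86.4%, and that of M00235 had 103 counts and 58.4 to 76.2%.

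**Figure D2:**
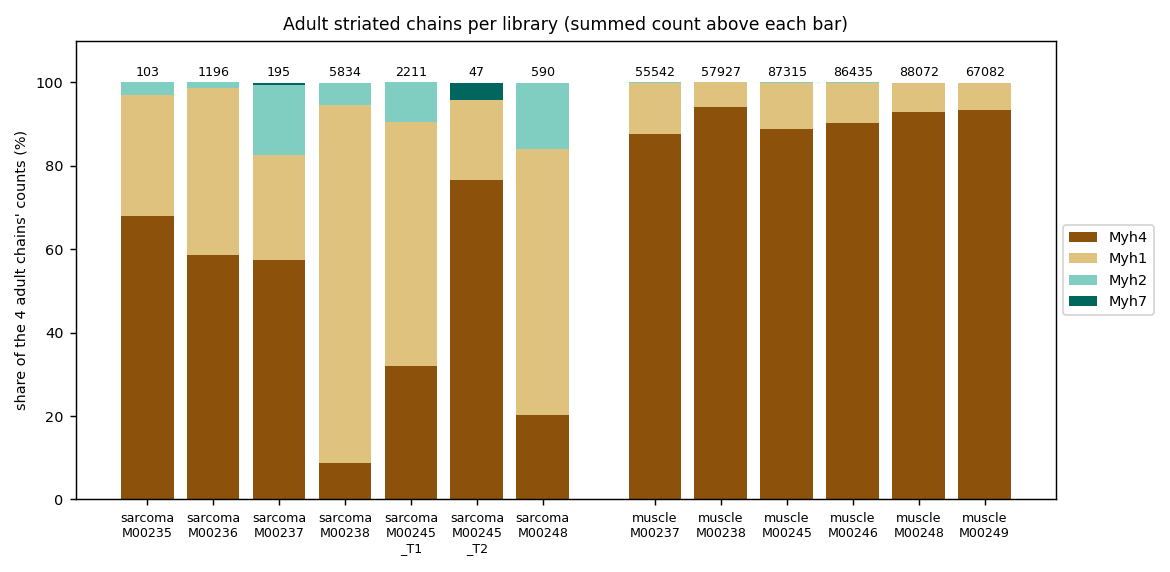
Shares of Myh4, Myh1, Myh2 and Myh7 in the summed counts of the 4 adult chains, in percent, in each sarcoma and each muscle library, with the summed count above each bar. Myh4 fills 87.6 to 94.2% of every muscle bar, and 8.72 to 76.6% of the sarcoma bars. In sarcomas M00235, M00237, M00248 and M00245_T2 the level of Myh4 was within its range in normal tissues other than muscle.

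The ratio of Myh4 to Myh1 put the same difference on a scale free of library size. It was 0.102 to 4.0 in sarcomas and 7.14 to 16.2 in muscle. On the log2 scale, with the M00245 sarcomas summed, it averaged -0.46 ± 1.8 in sarcoma and 3.44 ± 0.47 in muscle (SD, n = 6 mice each), a difference of -3.9. The ratio was chosen after its values had been seen, and 4 of the mice are in both groups, so it is given as a description with no test. The Myh4 values at trace level named above enter it as well. Under the alternatives, among them leaving out each mouse and using 1 of the M00245 sarcomas, the difference was -4.24 to -3.33.

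**Figure D3:**
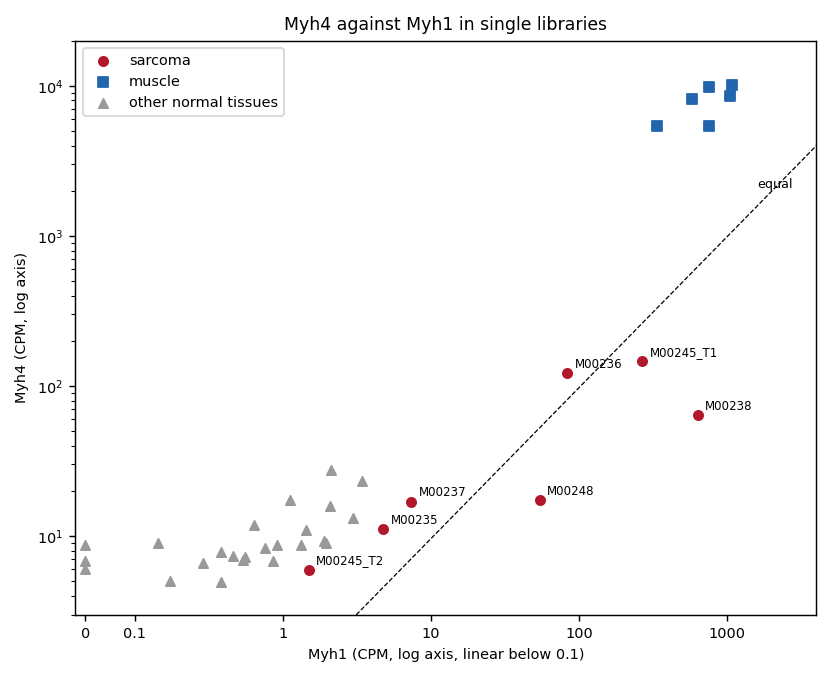
Myh4 against Myh1 in CPM, both axes logarithmic and that of Myh1 linear below 0.1, for every sarcoma, muscle and other normal library; the dashed line marks equal values. Muscle libraries sit at the upper right with a ratio of 7.14 to 16.2, and sarcomas spread below them with a ratio of 0.102 to 4.0.

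Myh4 was counted in every tissue library, also where no striated muscle belongs. In the 24 normal libraries other than muscle it had 4.98 to 27.4 CPM with a median of 8.69. The sarcomas of M00235, M00237 and M00248 and the second of M00245 lay inside that range, at 5.96 to 17.4 CPM. In liver the median of Myh4 was 0.105% of that in muscle. The fraction differed between muscle genes: it was 0.106% for Mylpf, the fast regulatory light chain, 0.099% for Tnnt3, 0.0773% for Acta1, skeletal actin, and 0.0534% for Atp2a1, but 0.352% for Des, the muscle intermediate filament desmin, 0.839% for Neb, the thin filament protein nebulin, and 0.0288% for Myh1. Myh1 had over 3 counts in 15 of these 24 libraries, and at most 21, so a ratio of the pair is rough. Where given, Myh4 over Myh1 was 6.6 to 15.6 in liver, 4.62 to 9.57 in spleen and 4.4 to 12.9 in lung. It was 4.87 and 18.6 in brain and 13.2 in kidney, against 0.102 to 4.0 in sarcomas. Myh4 was at 0 in all 18 MEF libraries, which are in a separate table. Where the trace comes from was not tested, and values of Myh4 near 10 CPM in sarcoma are no higher than in liver or spleen.

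Against lung, which holds the same trace, Myh4 and Myh1 had higher means in sarcoma. This fit called 6512 of 15556 genes (41.9%), 2811 higher in sarcoma (18.1%) and 3701 lower (23.8%), and 3983 genes with the mouse as a block. Of 6 members tested 2 were called higher and 4 lower. Of these, Myh1 passed the filter through sarcoma alone and Myh6 and Myh7 through lung alone, so the number called supports nothing. No fold is therefore given for Myh1, which had scaled means of 142 ± 220 CPM in sarcoma and 1.18 ± 1.01 CPM in lung (SD, n = 6 and 7). Its unscaled ranges overlapped, at 1.49 to 630 CPM in sarcoma and 0.381 to 2.99 CPM in lung. Myh4 rose by 2.23 in log2 units (SE 0.59, adjusted p = 0.0061), with 52.1 ± 54.3 CPM in sarcoma and 11.1 ± 7.26 CPM in lung. It had 1.22 with the mouse as a block and 1.53 without the sarcoma of M00236. Myh2 was at 0 in all 7 lungs and did not pass the filter. Of 11 fast-fibre genes 6 passed the filter and all 6 rose, with a median of 4.93. Lung medians were 1.72 CPM for Tnnc2, 1.48 CPM for Atp2a1 and 2.92 CPM for Tnni2. Genes so low in lung can pass the filter through sarcoma alone, so this count supports nothing either.

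Myh6 was highest in lung libraries and varied between mice there. Myh6 had 2.79, 4.09, 3.74, 3.83, 98.1, 31.9 and 200 CPM in the lungs of M00237, M00238, M00245, M00246, M00247, M00248 and M00249. The last 3 stand apart from the first 4. Myh7 had 2.17 to 5.98 CPM in lung, lowest in that of M00247, and so did not follow Myh6. Some genes of the heart list went with Myh6, and others did so in part or not at all. Myl7, the atrial light chain, had 45.3, 24.3 and 99.5 CPM in the lungs of M00247, M00248 and M00249, against 2.17 to 5.15 CPM in the other 4. Tnni3, cardiac troponin I, had 40.7, 17.6 and 71.0 CPM in these 3 lungs, against 1.06 to 5.46 CPM. Nppa, the atrial natriuretic peptide, had 98.4 and 103 CPM in the lungs of M00247 and M00249, but 0.152 CPM in that of M00248. Sln had 4.85 CPM in the lung of M00248, against 4.39 CPM in that of M00238. Actc1 had 74.6 CPM in the lung of M00248, against 79.5 CPM in that of M00246. Nppb had at most 0.151 CPM in any lung. The heart list summed to 56.2 to 953 CPM over the 7 lungs.

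Sarcomas had little of either heart chain. Myh6 had 0.331 to 4.07 CPM in sarcoma with a median of 1.88, against 2.79 to 200 CPM in lung and at most 0.389 CPM in muscle. Against lung, Myh6 passed the filter through lung alone, where it was high, so its call supports nothing. Its scaled means were 2.04 ± 1.18 CPM in sarcoma and 52.7 ± 80.8 CPM in lung (SD, n = 6 and 7). Its log2 fold change moved with the fit, from -4.73 to -2.17 with the mouse as a block and -3.68 without the lung of M00249. Myh7 had 0 to 2 counts in each sarcoma library, under the limit of 3 counts, against 2.17 to 5.98 CPM (16 to 40 counts) in lung, and no fold is given. Against muscle, Myh6 did not pass the filter. It had 2 to 27 counts in a sarcoma library and 0 to 3 counts in a muscle library, and the muscle counts are within the limit that a count of 0 allows. The brain libraries had Myh6 at 3.58 and 1.52 CPM and Myh7 at 6.27 and 1.52 CPM, and in liver, spleen and kidney neither chain passed 0.172 CPM.

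**Figure D4:**
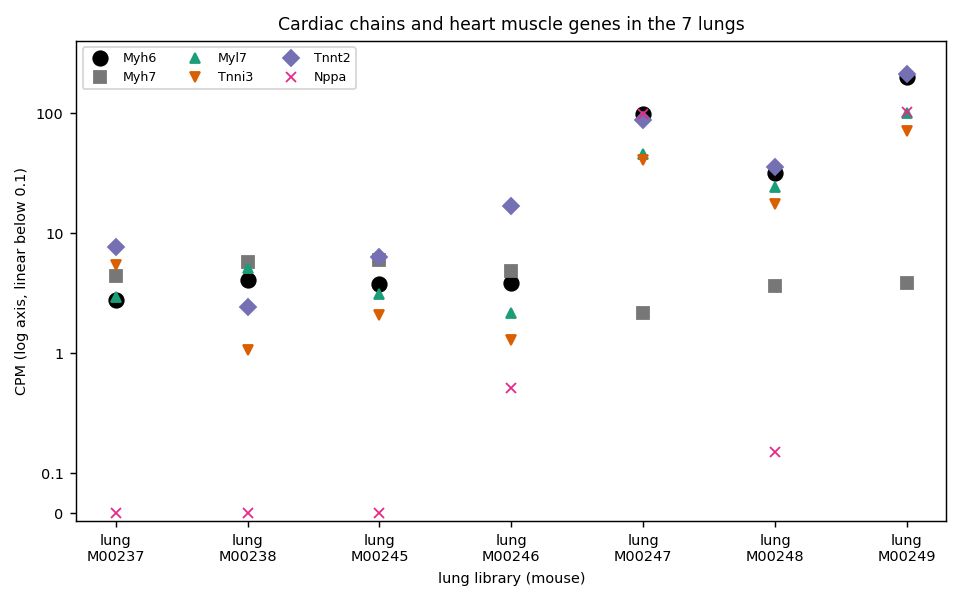
Myh6, Myh7 and the heart genes Myl7, Tnni3, Tnnt2 and Nppa in the 7 lung libraries, in CPM (log axis, linear below 0.1). Myh6 reaches 98.1, 31.9 and 200 CPM in the lungs of M00247, M00248 and M00249 and stays at 4.09 CPM or below in the other 4, while Myh7 keeps to 2.17 to 5.98 CPM.

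The non-muscle chains were present in all 60 libraries. Myh9 (ENSMUSG00000022443) had 156 to 231 CPM in sarcoma with a median of 186, against 64.0 to 97.3 CPM in muscle, 289 to 509 CPM in lung and 199 to 500 CPM in spleen. Myh10 (ENSMUSG00000020900) had 70.0, 50.0, 27.1, 70.3, 79.2, 27.5 and 92.2 CPM in the sarcomas in the order above, against 8.87 to 21.6 CPM in muscle and 158 to 440 CPM in lung. In these unscaled CPM all sarcomas lay above all muscles in both chains. On that unscaled basis 9249 genes were called higher in sarcoma and 2015 lower, so most called genes go the same way. The share of all genes with such a separation was not counted. Myh10 was 13.1 to 28.5% of the pair in sarcoma and 9.43 to 21.1% in muscle. It was 79.1 and 80.7% in brain, the one tissue besides lung where Myh10 passed Myh9 in any library, and 2.73 and 2.82% in the intestine tumour libraries.

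In the sarcoma and muscle fit Myh10 rose by 1.09 (SE 0.29, adjusted p = 0.0045), with 43.6 ± 15.8 CPM in sarcoma and 20.5 ± 6.62 CPM in muscle (scaled, SD, n = 6 each). Myh9 rose by 0.35 (SE 0.13, adjusted p = 0.028), with 138 ± 22.9 CPM in sarcoma and 108 ± 8.92 CPM in muscle. Mitochondrial transcripts took 21.09 to 34.8% of muscle counts, and scaling factors were 0.65 to 0.803 for muscle and 1.06 to 1.56 for sarcoma. With library totals alone, the median over all genes moved to 1.03 and the split of calls to 9249 higher and 2015 lower, and the fold changes became 2.06 for Myh10 and 1.3 for Myh9. With the mouse as a block Myh9 had 0.22 (adjusted p = 0.35), so its call depends on the fit, while Myh10 was called in all 20 alternatives. Of 17 partners of non-muscle myosin 5 rose, 3 fell and 9 were not called, with a median of 0.38. Of all genes tested, 33.5% were called higher and 31.3% lower. Most of the fibroblast, Schwann cell and macrophage markers given above rose, and their part in the levels of the partners was not tested. The actin-binding proteins Cald1 (2.51, SE 0.23, adjusted p = 5e-07) and Flna (1.72) rose. Ppp1cb, the catalytic subunit of myosin phosphatase (-1.34), and Tpm1, a tropomyosin abundant in muscle (-4.33), fell.

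Against lung both non-muscle chains were lower in sarcoma. Myh10 fell by 2.01 (SE 0.29, adjusted p = 4.8e-05), with scaled means of 57.4 ± 20.4 CPM in sarcoma and 231 ± 90.2 CPM in lung. Myh9 fell by 1.18 (SE 0.18, adjusted p = 7.3e-05), with 182 ± 29 CPM in sarcoma and 413 ± 94.9 CPM in lung (SD, n = 6 and 7). Of 17 partners 2 rose and 7 fell. All 10 endothelial markers fell as well, while 8 of 12 fibroblast markers rose, and their part was not tested. Among the partners that fell were Mylk, the light chain kinase (-2.75), and Myl12b, the regulatory light chain of non-muscle myosin (-1.96).

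In liver tumours Myh9 had 55.3, 329 and 212 CPM and Myh10 11.9, 28.4 and 43.8 CPM in mice M00236, M00248 and M00249, against 58.4 to 162 CPM and 6.99 to 18.3 CPM in 8 normal livers. The tumours of M00248 and M00249 lay above all livers in both chains, and that of M00236 lay within the livers' Myh10 range and below their Myh9 range. The fit called 1406 of 13256 genes (10.6%), 921 higher in tumour (6.95%) and 485 lower (3.66%), and of 3 members tested 1 was called. With the mouse as a block the fit called 0 genes, and without the tumour of M00248 it called 838. Myh10 rose by 1.11 (SE 0.32, adjusted p = 0.04), but the call was lost in 9 of 16 alternatives, among them the mouse as a block (0.48, adjusted p = 1). Myh9 had 1.04 (SE 0.4, adjusted p = 0.12) and Myh4 -0.43 (SE 0.35, adjusted p = 0.48). Of 17 non-muscle partners 5 rose and 0 fell, with a median of 0.47, such as Tpm4, a cytoskeletal tropomyosin (2.05, SE 0.25, adjusted p = 0.00043), and Myl12a, a regulatory light chain (1.34, adjusted p = 0.001).

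In MEFs the non-muscle chains were steady and the adult skeletal chains were nearly missing. Myh4 was at 0 in all 18 libraries, Myh1 had 3 counts and Myh2 1 count over all of them. Myh9 had 439 to 572 CPM at passage 3 with a median of 521, and 434 to 522 CPM at passage 1 with a median of 483. Myh10 had 159 to 252 CPM at passage 3 and 146 to 269 CPM at passage 1. The highest value of Myh10 at both passages belonged to homozygous embryo 10, with 252 CPM at passage 3 and 269 CPM at passage 1, and the other 8 embryos had 159 to 173 CPM and 146 to 184 CPM. Myh10 made up 23.2 to 35.1% of the pair.

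Neither passage nor genotype gave a call for these chains. Between passage 3 and passage 1, 344 of 12051 genes were called (2.85%), and 0 of the 2 members tested. Leaving out 1 embryo gave 16 (embryo 8) to 783 (embryo 10) calls. Myh9 had a log2 fold change of 0.08 (SE 0.05, adjusted p = 0.41), with scaled means of 516 ± 41.4 CPM at passage 3 and 487 ± 32.7 CPM at passage 1 (SD, n = 9 embryos each). Myh10 had -0.05 (SE 0.1, adjusted p = 0.87), with 175 ± 28.3 CPM at passage 3 and 181 ± 36.8 CPM at passage 1. All 17 partners were tested and 0 were called, with a median of -0.02. In each of the 6 genotype comparisons edgeR called 0 genes (0%), members included. At an unadjusted p under 0.05 there were 1274 genes for homozygous against negative, 299 for heterozygous against negative and 991 for homozygous against heterozygous embryos at passage 1, and 424, 499 and 399 at passage 3. The DESeq2 alternative called 24, 0 and 1 genes at passage 1 and 0, 1 and 1 at passage 3. Without homozygous embryo 7, edgeR called 793 genes between homozygous and negative embryos at passage 1. Macrophage markers split the homozygous embryos at that passage, with a sum of 1963 CPM in embryo 7, 67.5 CPM in embryo 10 and 63.1 CPM in embryo 3, against 1253 to 2185 CPM in negative embryos. At passage 3 they summed to 888 to 1237 CPM in homozygous and 1334 to 1776 CPM in negative embryos. Their part in these results was not tested. For homozygous against negative embryos, Myh10 had 0.24 (SE 0.18, adjusted p = 0.65) at passage 1, and without embryo 10 it had -0.08.

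Myh3 and Myh7 in MEFs came mostly from 1 library, which also held the largest part of Myh8 and Myh6. Homozygous embryo 10 at passage 1 had Myh3 at 36.4 CPM, Myh7 at 11, Myh8 at 6.42 and Myh6 at 5.90 CPM. It held 142 of 152 Myh3 counts, 43 of 46 Myh7 counts, 25 of 34 Myh8 counts and 23 of 44 Myh6 counts of the 18 libraries. At passage 3 the same embryo had Myh3 at 0.267 CPM, which is 1 count, and Myh6, Myh7 and Myh8 at 0. The next highest library, embryo 3 at passage 1, had Myh3 at 1.61 and Myh6 at 2.90 CPM. That embryo is labelled homozygous, but its Nrg1 of 0.644 CPM in this library goes against the label. In a fit without the filter on low counts, the 4 chains had adjusted p of 0.49 to 0.66 between homozygous and negative embryos at passage 1, so no difference between genotypes was called.

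Some genes of muscle were high in that library too, and others were at 0. Several of those named, from the developing, fast, slow and adult lists, were chosen after their values were seen. In homozygous embryo 10, Myog, the transcription factor of differentiating muscle cells, had 0.267 CPM at passage 3 and 148 CPM at passage 1. Apart from its passage 1 library, the MEF libraries had 0 to 7.08 CPM. Mylpf had 0.802 CPM at passage 3 and 66.7 CPM at passage 1, Actc1 0 and 64.2 CPM, Tnnt1, the slow troponin T, 0.535 and 65.2 CPM, and Tnnt2, the cardiac and fetal troponin T, 2.41 and 65.4 CPM. Acta1 had 9.36 and 121 CPM. Pax7, Myf5 and Myf6, transcription factors of muscle precursors and fibres, had 0 counts at passage 1, as did Ckm, muscle creatine kinase. The list of developing muscle summed to 13.0 to 365 CPM in homozygous, 13.7 to 47.2 CPM in heterozygous and 13.6 to 15.7 CPM in negative embryos at passage 1, and to 8.02 to 8.91 CPM in homozygous embryos at passage 3. The macrophage sum of embryo 10 was 1237 CPM at passage 3 and 67.5 CPM at passage 1. The part of other cells in the chain levels was not tested.

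**Figure D5:**
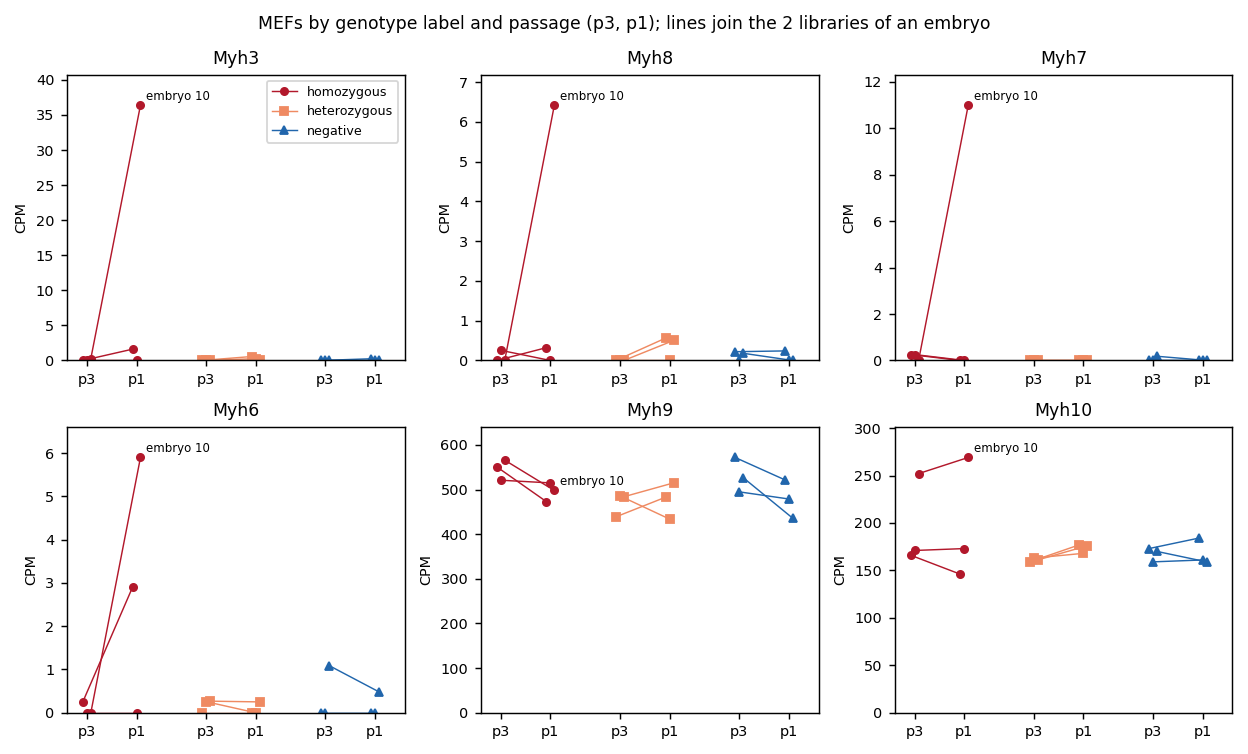
Levels of 6 heavy chains in CPM in the 18 fibroblast libraries, by genotype and passage (p3, p1), with 1 point per library and lines that join the libraries of an embryo. Myh9 stays at 434 to 572 CPM and Myh10 at 146 to 269 CPM, and the developmental chains stand out in 1 library, homozygous embryo 10 at passage 1, with Myh3 at 36.4 CPM.

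Genes whose log2 levels ran most closely with each chain were found over 41 tissue samples and 15738 genes, by Pearson's r, as a description. These samples share tissues and libraries, so r is largely a matter of tissue. Myh4 went most closely with Lrrc30 (0.984), Myf6 (0.983), a transcription factor of muscle fibres, and 2310002L09Rik (0.983). Myh1 went with Acta1 (0.988), Myhas (0.984) and Tnnc2 (0.983). Myh2 had looser partners: 9430073C21Rik (0.899), Klhl30 (0.872) and Mlip (0.867). Myh6 went with the heart genes Tnnt2 (0.882), Tnni3 (0.875) and Myl7 (0.864). Myh9 had Bcl2l11 (0.915), Tep1 (0.902) and Samhd1 (0.9), and Myh10 had Gucy1a1 (0.916), Plxna4 (0.899) and Arhgap6 (0.896).

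Over the 18 MEF libraries and 9350 genes, Myh3 went most closely with Tnnc2 (0.991), Myl1 (0.974) and Mb (0.972), and Myh7 with Pnmt (0.991), Myom3 (0.991) and Myl1 (0.978). These values rest on the 1 library of embryo 10 in which all of them were high. Myh10 had Cpe (0.9), Mmp2 (0.887), a matrix protease, and Col8a1 (0.857), a collagen. Myh9 had the loosest partners, Peak1 (0.763), Tax1bp1 (0.75) and Ankrd17 (0.749).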

How the data were processed

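RNA from 42 tissue and 18 MEF samples was read near transcript 3′ ends. The authors deposited expected counts per gene and tables of CPM. The CPM values deposited for the same libraries served only to check CPM recomputed from the counts. No source used here names the aligner or the build. Tests had been planned for raw counts, so expected counts were rounded, which moved totals by at most 0.0007%.

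Genes were tested with edgeR 4.0.16 in R 4.3.3 (quasi-likelihood F test, two-sided, TMM scaling, filterByExpr at a minimum count of 10, Benjamini-Hochberg adjustment over all genes tested, threshold 0.05), and standard errors come from F. Scaled means are TMM-scaled CPM within a comparison. The 2 M00245 sarcomas were summed. Liver tumours and livers, sarcomas and muscles or lungs, and passages share mice or embryos by label. Deviations of such pairs correlated at -0.26 to 0.42 in tissues and 0.1 to 0.51 in MEFs. Shares carry Wilson 95% intervals, which cover counting error only, as do the limits of 3 counts.

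Genes named are the 9 members, up to 4 genes of each list with the smallest adjusted p or the highest level, and the 3 genes most like a member. Others, such as Mylpf, Ckm, Acta1, Des, Actn3, Actc1, Tnnt1 and Nppa in the trace, lung and MEF accounts, were chosen after their values were seen. Members and lists were chosen with earlier results of these data known. Alternatives were DESeq2 1.42.0, other scaling and filters, each library left out, and the mouse or embryo as a block. Scaling by library totals alone, and the alternatives for shares, levels and ratios, were added after the data were seen. Python 3.11.15 was used for levels and figures. The kidney, brain and intestine tumour libraries got no test.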

Additional observations from a re-analysis of the deposited data

Results flagged for a closer look

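A library stood apart from its group in 5 of 23 pairs of chain and group, by the gap to its nearest neighbour relative to the group's range. How often chance alone would mark a group was not estimated for these CPM, so the number marked is a description. Myh1 had 630 CPM in the sarcoma of M00238, and the next sarcoma had 267 CPM. Myh2 had 23.8 CPM in the muscle of M00245, and the next muscle had 6.09 CPM. The lung of M00238 stood apart in both Myh10, with 440 CPM and the next lung at 228 CPM, and Myh4, with 27.4 CPM and the next lung at 13.2 CPM. Myh4 had 17.4 CPM in the liver of M00248, and the next liver had 11 CPM.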

How the results depend on the processing

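Of 492 alternatives for member fold changes, 454 kept direction and side of the threshold, 18 lost the call, 7 gained it and 13 turned direction. Against muscle, Myh1 (log2 -4.74 to -2.33), Myh4 (-8.81 to -7.3) and Myh10 (0.94 to 2.06) were called in all 20 alternatives, Myh9 in 12 (log2 0.22 to 1.3) and Myh8 in 4. Myh2, not called there, turned to 0.39 with a replicate block of mice, 0.21 with the first M00245 sarcoma only, 0.94 with library totals, 0.11, 0.1 and 0.04 without sarcoma M00235, M00236 or M00237, and 0.86 without muscle M00245, within a range of -0.84 to 0.86 over single libraries left out. In MEFs at passage 1 uncalled values turned too: Myh10 to -0.08 (homozygous against negative) and -0.15 (homozygous against heterozygous) without embryo 10 (up to 0.4 and 0.32 without embryo 3), and Myh9 to -0.03 without embryo 6 or 8 and 0 with library totals (heterozygous against negative) and -0.04 without embryo 4 (homozygous against heterozygous, up to 0.09 without embryo 6). Over all 14 alternatives, Myh10 for homozygous against negative embryos at passage 1 ranged from -0.08 to 0.46. None of the 93 alternatives for shares and levels moved a value by over 1 SD. Most of them were medians with 1 library left out, set against the SD between the same libraries. A median can hardly move that far, so this outcome says little about how firm the values are.

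With the block, sarcoma against lung had 3983 calls and liver tumour against liver 0. Leaving out 1 library gave 838 to 1927 calls for liver tumours, lowest without the tumour of M00248. The passage count was 590 with DESeq2, 16 to 783 with 1 embryo left out, and 16 without embryo 8, whose passage labels conflict. At passage 1, homozygous against negative gave 24 with DESeq2, 0 to 793 with 1 embryo left out, and 2 without embryos 1 and 3. Heterozygous against negative gave 0 to 1 and 2, and homozygous against heterozygous 1 with DESeq2 and 0 to 28. At passage 3, DESeq2 gave 1 for heterozygous against negative and 1 for homozygous against heterozygous, and leaving out embryos 1 and 3 gave 1 for homozygous and 1 for heterozygous against negative. The causes were not tested. No paired analysis was possible between genotypes because each embryo has 1 genotype. Low counts of Myh3, Myh6, Myh7 and Myh8 limit what can be said of them.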
